A study of Mus musculus with 12 samples.

Results

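The comparison described here is iron, given as FAC, against AC in wild-type mouse primary hepatocytes. It uses 6 of the 12 RNA-seq samples of the study, chosen by their labels alone: libraries 4, 5 and 6 were treated with FAC and libraries 1, 2 and 3 with AC. Both groups were liver-derived hepatocytes of wild-type C57BL/6 mice, kept in serum-containing DMEM and exposed to either agent at 100 µM for 24 h, so that the agent was the only labelled difference. Neither abbreviation is spelled out in the sample descriptions. The other 6 samples were Fxr-/- hepatocytes (called KO here) under the same treatments, and they were used to estimate the spread and to test whether a response differed between genotypes. Whether the replicates came from different mice or cultures is not stated, so p-values measure only the spread between these samples, which may be technical.

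Hepatocytes hold iron in ferritin, release it through ferroportin and secrete hepcidin, the product of Hamp, which limits the entry of iron into plasma. Hamp is a target of BMP-SMAD signalling, together with the inhibitors of DNA binding Id1, Id2 and Id3. Ferritin is broken down in lysosomes, whose lumen is acidified by the V-ATPase, a proton pump of many subunits. Cells meet misfolded protein with heat-shock chaperones, and meet amino acid shortage, oxidative damage or stress of the endoplasmic reticulum with the integrated stress response, in which ATF4 and CHOP (the product of Ddit3) act on shared targets.

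The genes that changed in this comparison included Hamp, Id2 and Smad9, which fell, and Hspa1a, Hspa1b, Atf3, Chac1 and Nupr1, which rose. Their promoters are shown because each carries, within 250 bases before the start, a motif by which a pathway named above is known to act. The sequences are from RefSeq (GRCm38.p6, the build of the deposited table), read 5′ to 3′ on the gene's strand, with up to 50 bases on each side of the match. Capitals mark the motif, which is GGCGCC for the BMP-responsive element, GAANNTTC or TTCNNGAA for the heat-shock element and TGATGNAA for the composite site of CHOP and ATF4, searched on both strands (TTGCATCA is a match to TGATGNAA on the other strand). The first 3 are BMP targets, the fourth is the heat-shock gene and the last 3 are genes of the integrated stress response.
Hamp, chr7:30944083-30944188, minus strand: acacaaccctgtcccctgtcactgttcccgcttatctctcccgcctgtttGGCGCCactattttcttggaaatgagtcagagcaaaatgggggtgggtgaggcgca
Id2, chr12:25096268-25096342, minus strand: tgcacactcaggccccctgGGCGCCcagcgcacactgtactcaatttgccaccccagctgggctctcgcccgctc
Smad9, chr3:54755481-54755581, plus strand: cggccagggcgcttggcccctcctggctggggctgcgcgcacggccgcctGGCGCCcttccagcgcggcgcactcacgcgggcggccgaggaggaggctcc
Hspa1a, chr17:34972203-34972310, minus strand: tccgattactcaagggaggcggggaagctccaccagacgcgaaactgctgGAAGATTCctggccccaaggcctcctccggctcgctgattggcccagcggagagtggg
Atf3, chr1:191183386-191183493, minus strand: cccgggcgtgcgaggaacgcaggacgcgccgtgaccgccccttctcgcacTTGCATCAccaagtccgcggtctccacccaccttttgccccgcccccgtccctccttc
Chac1, chr2:119350999-119351106, plus strand: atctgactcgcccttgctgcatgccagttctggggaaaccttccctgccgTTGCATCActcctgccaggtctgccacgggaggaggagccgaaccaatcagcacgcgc
Nupr1, chr7:126625523-126625630, minus strand: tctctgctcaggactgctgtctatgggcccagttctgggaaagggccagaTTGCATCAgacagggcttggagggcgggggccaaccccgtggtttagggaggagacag
The matching window of Hspa1b (chr17:34959285-34959392, minus strand) differed from that of Hspa1a at 0 bases. Of the tested genes 9853 had a promoter in the RefSeq table. The CHOP-ATF4 letters stood in 2.54% of these promoters, in 2.57% of those of genes called higher and in 2.03% of those of genes called lower. They stood in 7 of the 19 genes of the integrated stress response list with a promoter (Atf3, Asns, Nupr1, Chac1, Pycr1, Vldlr and Fgf21), of which the first 4 rose and the last 3 did not pass the test. The heat-shock letters stood in 12.3% of all promoters, 12.7% of higher and 11.6% of lower genes, and in 9 of 19 cytosolic chaperone genes, of which only Hspa1a and Hspa1b rose. GGCGCC stood in 19.4% of all promoters, 16.1% of higher and 22.6% of lower genes, and in 3 of 10 BMP targets. These matches describe letters in a window and say nothing of binding.

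The 6 wild-type libraries held 17071190 to 17939091 estimated reads. A gene was called when its adjusted p was under 0.05 (edgeR's quasi-likelihood test, Benjamini-Hochberg adjustment over 12275 tested genes), and levels are CPM, counts scaled to a common library size after TMM normalization. By this rule 17.2% of the tested genes were called, 8.7% as higher and 8.55% as lower with FAC, and 2.36% were called with a change of at least 2-fold. Calls were more common at higher levels: 27.8% of 1668 genes at 100 to 1000 CPM were called (268 higher and 195 lower). At 1000 CPM or more 43.0% of 121 genes were called (41 higher and 11 lower). The list counts below are to be read against these shares, and those of abundant genes against the higher ones. The 3 FAC libraries lay wholly above or wholly below the 3 AC libraries for 43.2% of genes, so a lack of overlap alone is common here. Such separation held for 1064 of 1068 genes called higher and 1045 of 1049 called lower, so it adds almost nothing to a call. The first principal component of the wild-type libraries held 56.9% of the variance and had all AC libraries at -23.3 to -21.5 and all FAC libraries at 21.01 to 24.1. The median log2 fold change over all tested genes was -0.002. Leaving out AC library 1, 2 or 3 gave 1409, 1656 or 1295 calls in place of 2117, and leaving out FAC library 4, 5 or 6 gave 1326, 1250 or 1378. All 24 genes of the list of hepatocyte markers were tested, and their summed level, of which Alb was the largest part, was 58782 to 63309 CPM with AC and 72582 to 75041 CPM with FAC. Some markers of the list were low in both groups: Cps1, the first enzyme of the urea cycle, stood at 5.23, 5.08 and 4.65 CPM with AC and 3.22, 3.997 and 3.27 CPM with FAC, and Tat, tyrosine aminotransferase, at 2.94, 2.98 and 2.13 CPM with AC and 4.69, 3.56 and 3.15 CPM with FAC. Cps1 fell (log2 fold change -0.51, SE 0.16, adjusted p = 0.0458), a call lost whichever library was left out (highest adjusted p = 0.144) and once the trend of fold change on gene length was removed (adjusted p = 0.192).

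Gene length moved with the fold change. The median log2 fold change was 0.18 for 230 genes with an effective length under 500 bases, 0.14 for 912 genes of 500 to 1000 bases, -0.06 for 3147 genes of 3000 to 5000 bases and -0.18 for 1584 genes of 5000 bases or more. Of the shortest genes 16.5% were called higher and 1.3% lower, and of the longest 2.53% were called higher and 20.01% lower. Genes called higher had a median effective length of 1790 bases and genes called lower one of 3919 bases. The same slope was present in the KO libraries, where the medians were 0.24 for the shortest and -0.24 for the longest genes. Averaged over reads, the length of the gene a read came from was 2488 to 2659 bases in the AC libraries and 2397 to 2417 bases in the FAC libraries, and these ranges did not overlap. The cause of this slope was not tested. A further fit, chosen after seeing the data, took the length trend out of every library; it called 1113 genes higher and 855 lower, and its counts are given below where they matter to a group. A second scaling, log2(TPM + 1) with limma, moved the median of all genes to -0.10 and called 576 genes higher and 1967 lower, so 22.7% of its calls were higher against 50.4% here. On that scale the stress list held 7 higher and 1 lower, and the lysosome and autophagy list 17 and 5. The V-ATPase list held 10 and 1, the P450 list 18 and 1 and the cholesterol list 3 and 2. In the endoplasmic reticulum list the counts were 2 and 2, and in the BMP list 1 and 7.

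**Figure D1:**
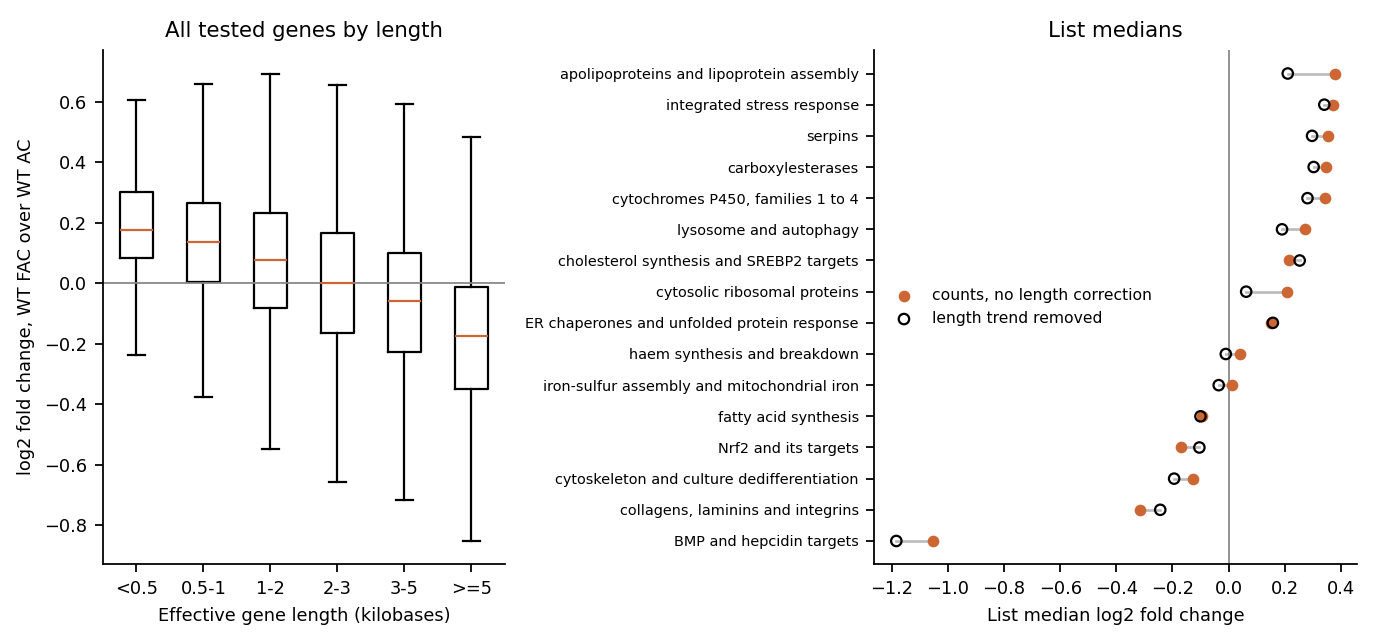
Left, log2 fold change (WT FAC over WT AC) of all tested genes with a length, by effective gene length in kilobases; boxes are quartiles with the median, and whiskers reach 1.5 times the quartile range, with points beyond them not drawn. Right, median log2 fold change of 16 gene lists in the fit without a length correction (filled) and with the length trend removed (open); the ribosomal protein median moves from 0.21 to 0.06, while that of the P450 genes moves from 0.34 to 0.28.

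BMP targets fell with FAC, and no member of their list was called higher. Of 15 tested members 8 were lower and 7 did not pass, with a list median of -1.05. Hamp stood at 302, 348 and 319 CPM in the AC libraries and 16.99, 20.3 and 9.87 CPM in the FAC libraries, a fall of more than an order of magnitude (log2 fold change -4.36, SE 0.42, adjusted p = 0.0002). Id2 stood at 50.99, 57.6 and 48.5 CPM in the AC libraries and 4.91, 5.59 and 7.28 CPM in the FAC libraries (log2 fold change -3.14, SE 0.32, adjusted p = 0.000111). For both genes every FAC library was far below every AC library. Smad9, a SMAD of the BMP branch, stood at 1.15, 1.46 and 1.64 CPM in the AC libraries and 0.282, 0.274 and 0.344 CPM in the FAC libraries (log2 fold change -2.21, SE 0.35, adjusted p = 0.000906). Id3, a further inhibitor of DNA binding, stood at 56.7, 60.96 and 56.3 CPM in the AC libraries and 26.1, 25.4 and 32.3 CPM in the FAC libraries (log2 fold change -1.05, SE 0.23, adjusted p = 0.00985). Smad6, an inhibitory SMAD, fell as well (log2 fold change -1.25, SE 0.26, adjusted p = 0.00514). So did Bmper, a secreted BMP modulator near the detection limit (log2 fold change -1.76, SE 0.56, adjusted p = 0.0446). The inhibitory SMAD Smad7 was lower in all 3 FAC libraries but did not pass (log2 fold change -0.48, SE 0.17, adjusted p = 0.0677). Among the ligands, Bmp6, the main BMP that signals iron load to hepatocytes, did not pass (log2 fold change 0.20, SE 0.11, adjusted p = 0.212). Bmp2 did not pass either (log2 fold change 0.04, SE 0.33, adjusted p = 0.947). With the length trend removed the list again held 8 lower members and 0 higher ones.

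Of 15 genes of iron uptake, storage and export 3 rose, 2 fell and 10 did not pass, with a list median of -0.01. Over all tested genes 8.7% were called higher and 8.55% lower. Tfrc, the transferrin receptor, stood at 93.4, 83.6 and 74.1 CPM in the AC libraries and 40.4, 32.3 and 42.4 CPM in the FAC libraries (log2 fold change -1.13, SE 0.16, adjusted p = 0.000516). Slc40a1, which encodes the exporter ferroportin, stood at 102, 101 and 104 CPM in the AC libraries and 168, 169.6 and 192 CPM in the FAC libraries (log2 fold change 0.79, SE 0.18, adjusted p = 0.0126). The groups were separate for both. Without AC library 1 the call on Slc40a1 was lost (adjusted p = 0.0528) and the list held 1 higher member. Ftl1, the ferritin light chain, stood at 3592, 4089 and 4157 CPM in the AC libraries and 6725, 6732 and 7009 CPM in the FAC libraries (log2 fold change 0.79, SE 0.08, adjusted p = 2.88e-05). Fth1, the heavy chain, rose less (log2 fold change 0.33, SE 0.09, adjusted p = 0.0282) and no longer passed once the length trend was removed (log2 fold change 0.21, adjusted p = 0.162). Aco1, which encodes the iron-regulatory protein IRP1 when it lacks its iron-sulfur cluster, stood at 185, 185 and 177 CPM in the AC libraries and 133, 126 and 131 CPM in the FAC libraries (log2 fold change -0.49, SE 0.08, adjusted p = 0.000865), with the groups apart. Ireb2, which encodes the partner protein IRP2, did not pass (log2 fold change -0.15, SE 0.09, adjusted p = 0.253). Neither did Ncoa4, the receptor that delivers ferritin to lysosomes (log2 fold change 0.11, SE 0.18, adjusted p = 0.712). Of the zinc and iron importers, Slc39a14 (log2 fold change 0.21, adjusted p = 0.251) and Slc39a8 (log2 fold change 0.50, adjusted p = 0.0548) were each higher in all 3 FAC libraries without passing.

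Among plasma iron and haem carriers, haem transporters and ferrireductases 3 of 13 rose and 4 fell, with a list median of -0.16. The shares of all tested genes were 8.7% and 8.55%. Leaving out AC library 2 gave 2 higher members, and leaving out any other wild-type library gave 1. Cp, which encodes the iron oxidase ceruloplasmin, stood at 2689, 2393 and 2352 CPM in the AC libraries and 1401, 1300.2 and 1509.8 CPM in the FAC libraries (log2 fold change -0.82, SE 0.09, adjusted p = 4.55e-05). Lrp1, a receptor that takes up haem bound to haemopexin among many other ligands, stood at 161, 149.7 and 159.9 CPM in the AC libraries and 94.4, 91.2 and 99.7 CPM in the FAC libraries (log2 fold change -0.72, SE 0.10, adjusted p = 0.00035), and missed the threshold without the length trend (adjusted p = 0.0501). In both every FAC library was below every AC library. The haem exporter gene Flvcr1 stood at 11.8, 11.03 and 11.9 CPM in the AC libraries and 18.8, 18.02 and 16.1 CPM in the FAC libraries (log2 fold change 0.61, SE 0.12, adjusted p = 0.00336). Flvcr2 rose from a lower level (log2 fold change 0.91, SE 0.27, adjusted p = 0.032), a call lost whichever of the 6 libraries was left out (highest adjusted p = 0.108). Hpx, which encodes the haem-binding plasma protein haemopexin, stood at 8922, 10135 and 9586 CPM in the AC libraries and 11356, 11025 and 11958 CPM in the FAC libraries (log2 fold change 0.26, SE 0.07, adjusted p = 0.0265). Its counterpart for free haemoglobin, Hp, was lower with FAC, at 2219, 2786 and 2499 CPM in the AC libraries and 1742, 1546 and 1999 CPM in the FAC libraries (log2 fold change -0.51, SE 0.13, adjusted p = 0.0172). Abcg2, a transporter that can carry porphyrins out of cells, fell (log2 fold change -0.57, SE 0.12, adjusted p = 0.00682). Trf, which encodes transferrin, did not pass (log2 fold change -0.11, SE 0.06, adjusted p = 0.239). None of the 21 tested genes of iron-sulfur assembly and mitochondrial iron was called, and the median log2 fold change of that list was 0.01. In the list of haem synthesis and breakdown Hmox1 alone was called among 13 (log2 fold change 0.71, SE 0.17, adjusted p = 0.018), and it missed the threshold without the length trend (adjusted p = 0.0563). Alas1, the first enzyme of haem synthesis, was higher in all 3 FAC libraries and did not pass (log2 fold change 0.26, SE 0.09, adjusted p = 0.0647).

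**Figure D2:**
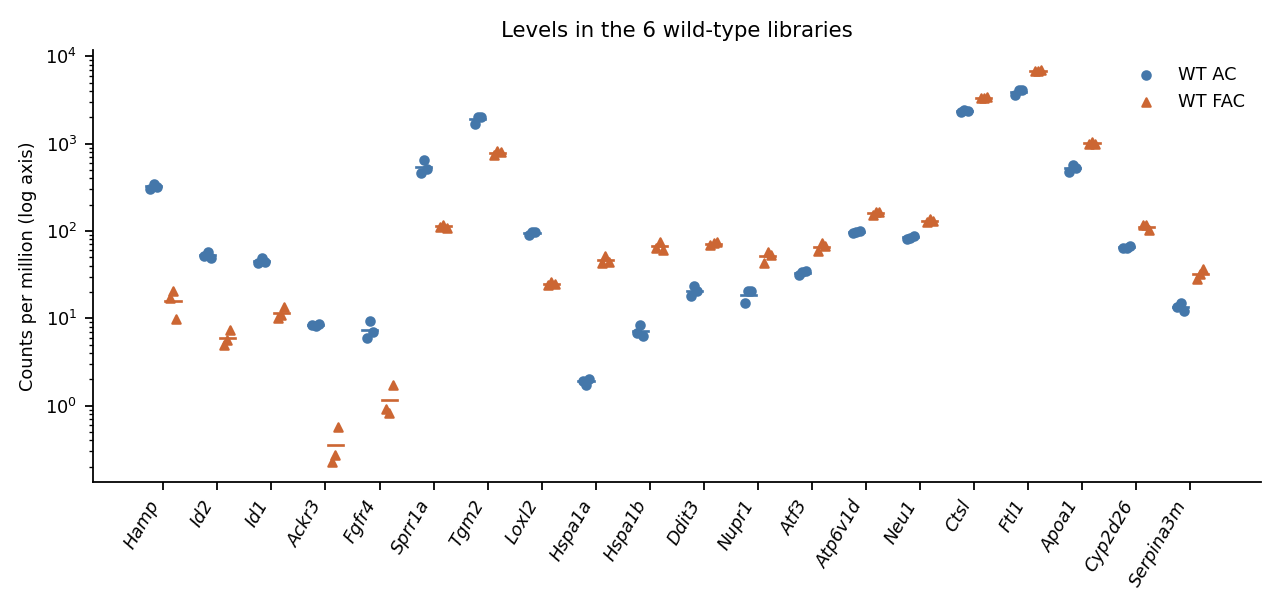
Level of 20 genes in the 6 wild-type libraries, in CPM on a log axis; circles are AC libraries, triangles FAC libraries and short lines group means. The groups do not overlap for any of the 20 genes, from Hamp (302 to 348 CPM with AC) to Serpina3m.

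The inducible heat-shock genes rose far more than any other chaperone. Hspa1a stood at 1.91, 1.73 and 2.02 CPM in the AC libraries and 43.2, 51.2 and 44.3 CPM in the FAC libraries (log2 fold change 4.61, SE 0.20, adjusted p = 2.27e-08). Hspa1b stood at 6.82, 8.38 and 6.29 CPM in the AC libraries and 64.2, 74.97 and 60.1 CPM in the FAC libraries (log2 fold change 3.21, SE 0.15, adjusted p = 3.1e-08). Both genes were several times higher in each FAC library than in any AC library, and since they encode nearly identical transcripts the split of reads between them is uncertain. Their co-chaperone Dnajb1, which feeds clients to HSP70, rose by much less (log2 fold change 0.37, SE 0.07, adjusted p = 0.00237), as did Chordc1, an HSP90 co-chaperone (log2 fold change 0.35, SE 0.08, adjusted p = 0.0113). The abundant HSP90 gene Hsp90ab1 fell slightly (log2 fold change -0.18, SE 0.05, adjusted p = 0.0204). The other 19 tested members of the cytosolic chaperone list did not pass, among them the other classical heat-shock genes Hspa8 (log2 fold change -0.01, SE 0.05, adjusted p = 0.897), Hsph1 (log2 fold change 0.14, SE 0.08, adjusted p = 0.236) and Hspb1 (log2 fold change 0.04, SE 0.08, adjusted p = 0.783). The transcription factor gene Hsf1 was at a log2 fold change of 0.03 (adjusted p = 0.894).

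Of 21 genes of the integrated stress response 12 were higher, 0 were lower and 9 did not pass, with a list median of 0.37. Leaving out 1 library gave 8 to 10 higher. Ddit3 stood at 17.8, 23.3 and 20.3 CPM in the AC libraries and 68.5, 71.95 and 74.1 CPM in the FAC libraries (log2 fold change 1.80, SE 0.09, adjusted p = 5.43e-08). Nupr1, a small stress-induced chromatin protein, stood at 15, 20.6 and 20.2 CPM in the AC libraries and 43.4, 57.5 and 52.9 CPM in the FAC libraries (log2 fold change 1.46, SE 0.20, adjusted p = 0.000386). Atf3, a transcription factor induced by ATF4, stood at 31.5, 33.9 and 34.5 CPM in the AC libraries and 58.7, 72.3 and 67.4 CPM in the FAC libraries (log2 fold change 0.99, SE 0.29, adjusted p = 0.0452), a call lost whichever of the 6 libraries was left out (highest adjusted p = 0.134). In all of these genes every FAC library was above every AC library. Stc2, a secreted glycoprotein, rose from a low level (log2 fold change 1.22, SE 0.22, adjusted p = 0.00197). Trib3, a pseudokinase that binds ATF4 and AKT, rose (log2 fold change 0.58, SE 0.08, adjusted p = 0.000427). So did Ppp1r15a, the phosphatase subunit that reverses the block on translation (log2 fold change 0.59, SE 0.15, adjusted p = 0.0156). Atf4 itself rose modestly (log2 fold change 0.37, SE 0.09, adjusted p = 0.0106). Asns, which makes asparagine, stood at 121, 123 and 120.1 CPM in the AC libraries and 165, 162 and 138 CPM in the FAC libraries (log2 fold change 0.35, SE 0.08, adjusted p = 0.0103). Outside the list, Phgdh, the first enzyme of serine synthesis, stood at 69.6, 69.7 and 75.3 CPM in the AC libraries and 103, 103 and 94 CPM in the FAC libraries (log2 fold change 0.48, SE 0.07, adjusted p = 0.000383). Fgf21 did not pass (log2 fold change 0.69, adjusted p = 0.144). Sesn2 (log2 fold change -0.24, adjusted p = 0.151) and Vldlr (log2 fold change -0.42, adjusted p = 0.0611) were lower in all 3 FAC libraries and did not pass. Without the length trend 10 of the 21 were higher; Atf3 and Cth, the enzyme that makes cysteine from cystathionine, were the losses (adjusted p = 0.0703 and 0.0672).

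Among endoplasmic reticulum chaperones and genes of the unfolded protein response 7 of 26 were higher and 0 lower, with a median of 0.15. Of all tested genes 8.7% were called higher and 8.55% lower. Dnajb9, a co-chaperone of BiP, stood at 44.01, 38.7 and 45.7 CPM in the AC libraries and 68.8, 69.98 and 62.8 CPM in the FAC libraries (log2 fold change 0.65, SE 0.08, adjusted p = 0.000117). Hspa5, which encodes BiP, stood at 638, 641 and 586 CPM in the AC libraries and 804, 809 and 759 CPM in the FAC libraries (log2 fold change 0.35, SE 0.06, adjusted p = 0.00134). The groups were separate for both. Sdf2l1 (log2 fold change 0.24, SE 0.11, adjusted p = 0.165) and Hyou1 (log2 fold change 0.14, SE 0.07, adjusted p = 0.195) did not pass, nor did the sensor gene Eif2ak3 (log2 fold change -0.13, SE 0.12, adjusted p = 0.488). The count of higher members fell to 2 without AC library 1, without AC library 3 or without FAC library 4, and to 4 without FAC library 5.

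Of 48 tested genes of lysosome and autophagy 28 were higher, 1 was lower and 19 did not pass, with a median of 0.27, against 8.7% and 8.55% of all genes. With the length trend removed 26 were higher and 2 lower, and leaving out 1 library gave 20 to 26 higher. Among 15 tested V-ATPase subunits 12 rose and 0 fell (median 0.40), and 11 rose without the length trend (median 0.35). Atp6v1d, a stalk subunit of the cytosolic V1 part, stood at 95.4, 97.2 and 101 CPM in the AC libraries and 153, 165 and 166 CPM in the FAC libraries (log2 fold change 0.72, SE 0.06, adjusted p = 1.18e-05). Atp6v1b2, a nucleotide-binding V1 subunit, stood at 91.7, 90.5 and 99.3 CPM in the AC libraries and 145, 171 and 141 CPM in the FAC libraries (log2 fold change 0.70, SE 0.10, adjusted p = 0.00037). Atp6v0b, of the membrane-bound V0 part, stood at 172, 204 and 186 CPM in the AC libraries and 279, 300.2 and 303 CPM in the FAC libraries (log2 fold change 0.65, SE 0.08, adjusted p = 0.000169). No FAC library of these subunits was at or below an AC library. The 3 that did not pass were Atp6v0a1 (log2 fold change 0.09, SE 0.07, adjusted p = 0.403), Atp6v0a2 (log2 fold change -0.17, SE 0.07, adjusted p = 0.101) and Atp6v0e2 (log2 fold change -0.26, SE 0.18, adjusted p = 0.357), all of the V0 part.

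**Figure D3:**
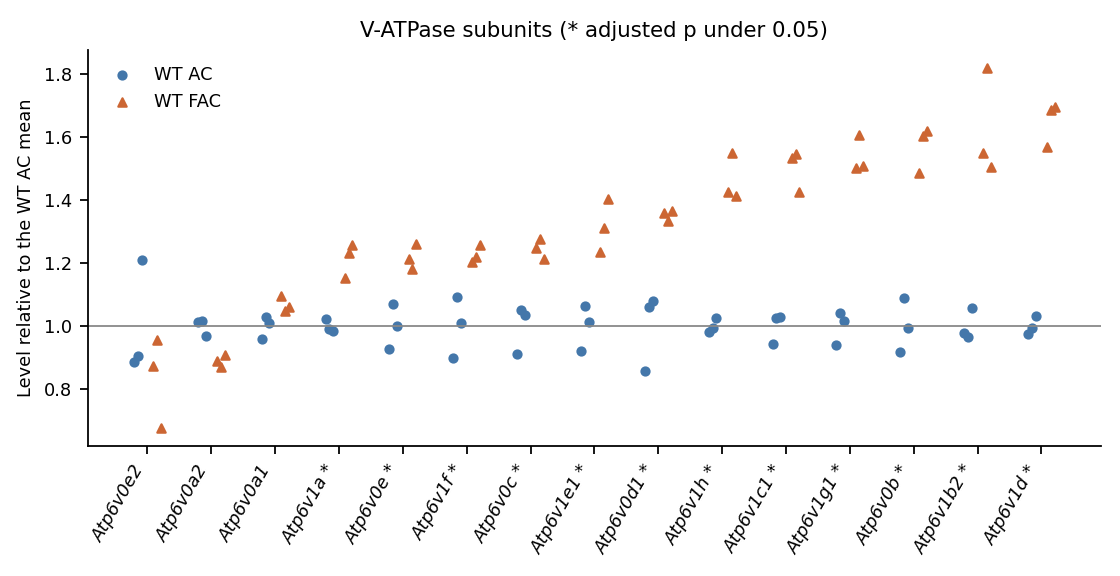
Level of 15 V-ATPase subunits in each wild-type library, divided by the mean of the 3 AC libraries; circles are AC libraries, triangles FAC libraries, and a star marks an adjusted p under 0.05. In the 12 marked subunits every FAC library lies above every AC library.

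Among the hydrolases, Neu1, the lysosomal sialidase, stood at 80.9, 83.7 and 87.9 CPM in the AC libraries and 125, 137 and 131 CPM in the FAC libraries (log2 fold change 0.64, SE 0.06, adjusted p = 3.46e-05). Ctsl, the protease cathepsin L, stood at 2285, 2398 and 2338 CPM in the AC libraries and 3306, 3342 and 3415 CPM in the FAC libraries (log2 fold change 0.52, SE 0.06, adjusted p = 0.000128). Lgmn, a protease that matures cathepsins, rose (log2 fold change 0.44, SE 0.07, adjusted p = 0.00109). So did the membrane protein genes Lamp2 (log2 fold change 0.24, SE 0.06, adjusted p = 0.0149), Cd63 (log2 fold change 0.39, SE 0.07, adjusted p = 0.00299) and Gpnmb (log2 fold change 0.70, SE 0.07, adjusted p = 1.68e-05). The cholesterol carriers of the lysosome, Npc1 (log2 fold change 0.40, SE 0.10, adjusted p = 0.0159) and Npc2 (log2 fold change 0.30, SE 0.07, adjusted p = 0.00664), rose too. All of these had separate groups. Autophagy genes were mixed: the LC3 family genes Map1lc3b (log2 fold change 0.28, SE 0.08, adjusted p = 0.029) and Gabarap (log2 fold change 0.27, SE 0.07, adjusted p = 0.025) rose. Wipi1 fell slightly (log2 fold change -0.21, SE 0.07, adjusted p = 0.0437), a call lost whichever library was left out (highest adjusted p = 0.139). Sqstm1, the cargo receptor p62, was higher in all 3 FAC libraries without passing (log2 fold change 0.29, SE 0.14, adjusted p = 0.185). Tfeb (log2 fold change -0.45, SE 0.16, adjusted p = 0.0674) and Tfe3 (log2 fold change -0.02, SE 0.08, adjusted p = 0.92), which encode the transcription factors that drive lysosomal genes, did not pass.

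In the list of glutathione and ferroptosis defence 4 of 18 genes fell and 1 rose, against 8.55% and 8.7% of all genes. Gsr, which regenerates reduced glutathione, stood at 547, 521 and 513 CPM in the AC libraries and 403, 379 and 369 CPM in the FAC libraries (log2 fold change -0.46, SE 0.07, adjusted p = 0.000526). Gss, the second enzyme of glutathione synthesis, fell (log2 fold change -0.38, SE 0.10, adjusted p = 0.0189). The catalytic subunit of the first enzyme, Gclc, fell as well (log2 fold change -0.64, SE 0.10, adjusted p = 0.00099). Its modifier Gclm did not pass (log2 fold change 0.17, SE 0.09, adjusted p = 0.219). Aifm2, which encodes the ferroptosis suppressor FSP1, stood at 39.6, 38.6 and 42.02 CPM in the AC libraries and 29.9, 30.99 and 23.9 CPM in the FAC libraries (log2 fold change -0.50, SE 0.11, adjusted p = 0.00823). The FAC libraries of these called genes were all below their AC libraries. Chac2, a glutathione-degrading enzyme, rose (log2 fold change 0.49, SE 0.12, adjusted p = 0.012), like Chac1 of the stress list.

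In the list of Nrf2 and its targets 6 of 20 fell and 0 rose, where 8.55% of all tested genes were called lower. Hmox1, called higher above, was counted in the haem list and not in this one. Abcc3, a conjugate exporter, had the largest change (log2 fold change -0.73, SE 0.09, adjusted p = 0.000119). Nfe2l2 (log2 fold change -0.33, SE 0.10, adjusted p = 0.0382) and Keap1 (log2 fold change -0.28, SE 0.06, adjusted p = 0.00887), the factor and its inhibitor, were among those that fell. The call on Nfe2l2 was lost whichever library was left out (highest adjusted p = 0.127). Classical targets such as Nqo1 (log2 fold change 0.15, SE 0.08, adjusted p = 0.219), Srxn1 (log2 fold change 0.01, SE 0.07, adjusted p = 0.92) and Txnrd1 (log2 fold change 0.02, SE 0.08, adjusted p = 0.912) did not pass. Gpx4, the peroxidase that guards membrane lipids, was higher in all FAC libraries and did not pass (log2 fold change 0.22, SE 0.10, adjusted p = 0.136). Slc7a11, the cystine importer, overlapped between groups (log2 fold change 0.10, SE 0.20, adjusted p = 0.776).

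Genes that metabolise foreign compounds rose in several families. Of 49 tested cytochromes P450 of families 1 to 4, 23 were higher and 0 lower (median 0.34). Leaving out 1 library gave 16 to 20 higher. Among the subfamilies 17 of 32 Cyp2 genes and all 4 tested Cyp3 genes rose, and both Cyp1 genes did not pass. Some called members, such as Cyp3a59, Cyp4b1 and Cyp4f15, were near the detection limit. Cyp2d26 stood at 64.1, 64.05 and 67.2 CPM in the AC libraries and 116, 116 and 102 CPM in the FAC libraries (log2 fold change 0.77, SE 0.06, adjusted p = 8.26e-06). Cyp2a5 stood at 161, 179 and 159 CPM in the AC libraries and 222, 226 and 255 CPM in the FAC libraries (log2 fold change 0.49, SE 0.07, adjusted p = 0.000615). Cyp2e1, which oxidises ethanol, rose too (log2 fold change 0.34, SE 0.08, adjusted p = 0.0124). The groups of all of these were separate. Of the carboxylesterases 9 of 14 were higher and 0 lower (median 0.35); Ces1d, a lipid droplet hydrolase, stood at 29.5, 31.9 and 34.4 CPM in the AC libraries and 55.2, 68.3 and 56.2 CPM in the FAC libraries (log2 fold change 0.91, SE 0.11, adjusted p = 9.44e-05). Of 14 UDP-glucuronosyltransferases 8 rose and 2 fell: Ugt3a1 stood at 2.94, 3.35 and 2.79 CPM in the AC libraries and 7.96, 8.76 and 8.202 CPM in the FAC libraries (log2 fold change 1.45, SE 0.11, adjusted p = 3.9e-06) and Ugt2b36 fell (log2 fold change -0.62, SE 0.14, adjusted p = 0.00786). Of 21 glutathione S-transferases 6 rose, Gsta1 among them (log2 fold change 0.50, SE 0.09, adjusted p = 0.00166), and 0 fell, but 3 fell once the length trend was removed. With that trend removed the counts were 21 P450 genes and 8 carboxylesterases higher and 0 of either lower. Members of these families are similar in sequence, so reads can be split between them with error.

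**Figure D4:**
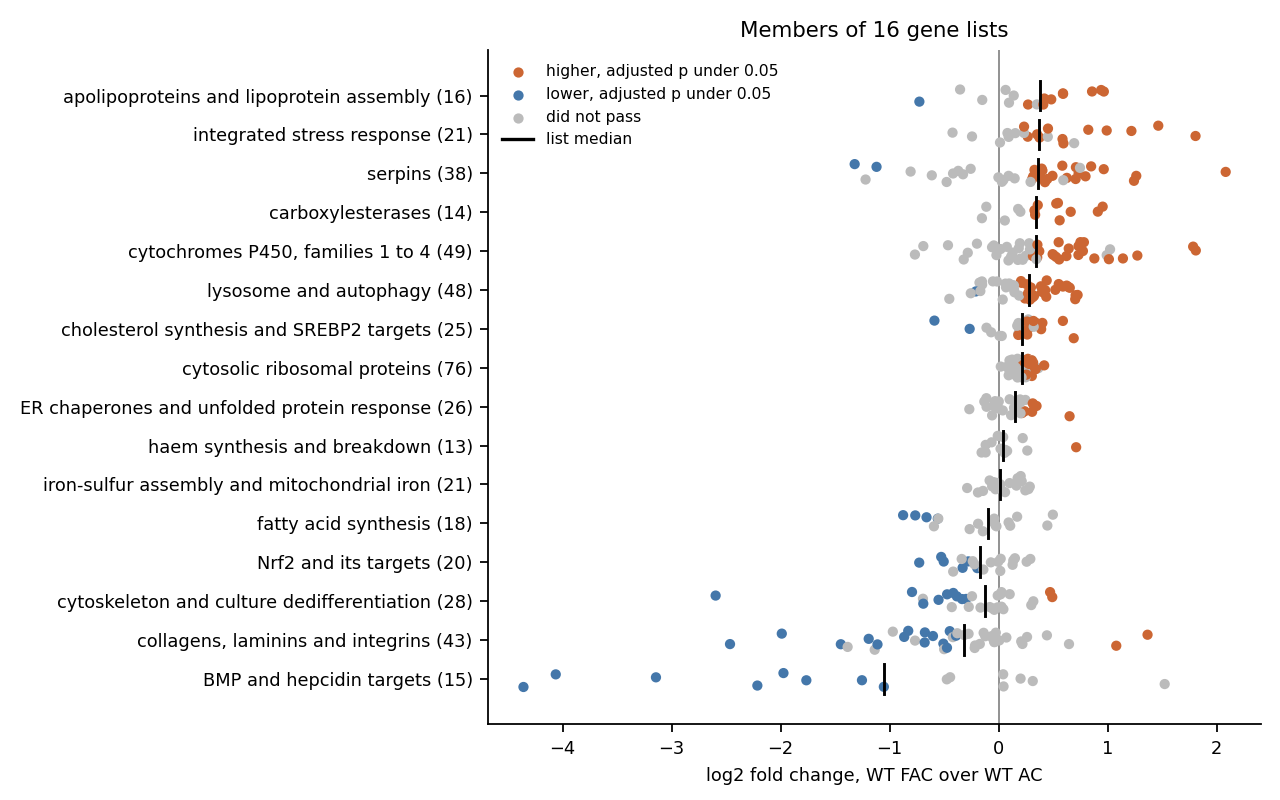
Log2 fold change (WT FAC over WT AC) of each tested member of 16 gene lists, with the number of members in brackets; colours mark members called higher or lower at an adjusted p under 0.05, grey members did not pass, and black bars are list medians (vertical offsets only keep points apart). Called members of the P450, carboxylesterase and stress lists are all to the right of 0, and those of the BMP list are all to the left.

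Genes for secreted liver proteins mostly rose: in the list of hepatocyte plasma proteins and markers 16 of 24 were higher and 2 lower (median 0.40). Alb, which encodes albumin, stood at 19921, 20934 and 20433 CPM in the AC libraries and 27202, 28839 and 27778 CPM in the FAC libraries (log2 fold change 0.45, SE 0.04, adjusted p = 2.44e-05). Serpins, the protease inhibitors, held 20 higher and 2 lower of 38 (median 0.36). Serpina3m stood at 13.4, 14.9 and 12.1 CPM in the AC libraries and 28.3, 32.1 and 36.4 CPM in the FAC libraries (log2 fold change 1.26, SE 0.12, adjusted p = 1.67e-05). Serpinc1, which encodes antithrombin, stood at 222, 242 and 233 CPM in the AC libraries and 347, 376 and 351 CPM in the FAC libraries (log2 fold change 0.62, SE 0.06, adjusted p = 1.44e-05). In each of these the FAC libraries were all above the AC libraries. The 5 Serpina1 copies rose by log2 fold changes of 0.38 (Serpina1c), 0.39 (Serpina1d), 0.40 (Serpina1e), 0.45 (Serpina1a) and 0.49 (Serpina1b), though near-identical copies share reads. Those that fell were Serpina5, a protein C inhibitor (log2 fold change -1.32, SE 0.33, adjusted p = 0.0156), and Serpina3c (log2 fold change -1.12, SE 0.33, adjusted p = 0.0334), both at a few CPM. In complement and coagulation 12 of 32 rose and 2 fell. Of the membrane attack complex, rises were seen in C6 (log2 fold change 0.62, SE 0.11, adjusted p = 0.00174), C8a (log2 fold change 0.68, SE 0.08, adjusted p = 7.62e-05), C8b (log2 fold change 0.42, SE 0.07, adjusted p = 0.00099), C8g (log2 fold change 0.60, SE 0.12, adjusted p = 0.00489) and C9 (log2 fold change 0.69, SE 0.10, adjusted p = 0.000526). The upstream genes C3 (log2 fold change -0.46, SE 0.09, adjusted p = 0.0028) and C4b (log2 fold change -0.31, SE 0.07, adjusted p = 0.00595) fell. F13b, a coagulation factor subunit, stood at 10.3, 10.1 and 11.8 CPM in the AC libraries and 18.9, 21.7 and 20.6 CPM in the FAC libraries (log2 fold change 0.93, SE 0.10, adjusted p = 4.72e-05).

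Apolipoprotein genes mostly rose. Of 16 tested genes 9 were higher and 1 lower. Apom, which carries sphingosine phosphate on HDL, stood at 14.5, 17.4 and 15.2 CPM in the AC libraries and 27.4, 29.1 and 28.5 CPM in the FAC libraries (log2 fold change 0.86, SE 0.09, adjusted p = 3.15e-05). Lcat, the enzyme that esterifies cholesterol on HDL, stood at 9.49, 13.4 and 11.4 CPM in the AC libraries and 21.3, 22.3 and 23.2 CPM in the FAC libraries (log2 fold change 0.96, SE 0.11, adjusted p = 7.62e-05). Apob, the structural protein of VLDL, was the one that fell, at 1336, 764 and 811 CPM in the AC libraries and 518, 530.1 and 709 CPM in the FAC libraries (log2 fold change -0.73, SE 0.22, adjusted p = 0.0428). Its AC library 1 lay well above the other AC libraries, and the call did not hold once the length trend was removed (log2 fold change -0.37, adjusted p = 0.117). Mttp, which loads lipid onto ApoB, did not pass (log2 fold change -0.15, SE 0.12, adjusted p = 0.408). Of 18 tested major urinary protein genes 10 rose and 0 fell; their reads are shared between near-identical copies, and their summed level was 9950 to 11393 CPM with AC and 13599 to 14154 CPM with FAC.

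Acute-phase genes went both ways, with 10 of 25 higher and 5 lower. Fgg, the fibrinogen gamma chain, stood at 146, 181 and 150.0 CPM in the AC libraries and 292, 336 and 349 CPM in the FAC libraries (log2 fold change 1.04, SE 0.13, adjusted p = 0.000301). Crp, the C-reactive protein gene, was higher in all FAC libraries with a wide spread among them (log2 fold change 0.997, SE 0.27, adjusted p = 0.0323). Saa2 (log2 fold change 0.57, SE 0.07, adjusted p = 0.000199) rose while Saa4 (log2 fold change -0.86, SE 0.12, adjusted p = 0.000431), a constitutive member of the same family, fell. Clu, which encodes the secreted chaperone clusterin, stood at 8063, 9179 and 8845 CPM in the AC libraries and 6293, 6122 and 7205 CPM in the FAC libraries (log2 fold change -0.41, SE 0.09, adjusted p = 0.01). Within these secreted products the direction was therefore not shared by all. Without the length trend Crp missed the threshold (adjusted p = 0.0526).

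Lipid synthesis genes split between sterols and fatty acids. Of 25 genes of cholesterol synthesis and SREBP2 targets 11 rose and 2 fell (median 0.21). Insig1, which holds back SREBP processing, stood at 65.4, 62.6 and 59.5 CPM in the AC libraries and 98.3, 98.2 and 106 CPM in the FAC libraries (log2 fold change 0.69, SE 0.14, adjusted p = 0.00492). Msmo1, a sterol demethylation enzyme, stood at 281, 305 and 279 CPM in the AC libraries and 423, 428 and 448 CPM in the FAC libraries (log2 fold change 0.59, SE 0.08, adjusted p = 0.000189). Both had separate groups. Dhcr7, an enzyme of the last steps of the pathway, was among those that fell (log2 fold change -0.27, SE 0.07, adjusted p = 0.0222). The count of higher members fell to between 5 and 7 when any 1 of the libraries other than AC library 2 was left out. In fatty acid synthesis 4 of 18 fell and 0 rose, against 8.55% and 8.7% of all genes. Gpam, the first enzyme of triglyceride assembly, stood at 100.4, 89.96 and 96.5 CPM in the AC libraries and 51.6, 53.6 and 50.99 CPM in the FAC libraries (log2 fold change -0.88, SE 0.15, adjusted p = 0.00223). Scd1, the stearoyl-CoA desaturase, fell (log2 fold change -0.77, SE 0.08, adjusted p = 4.55e-05), as did Acss2, which makes acetyl-CoA from acetate (log2 fold change -0.66, SE 0.08, adjusted p = 0.000119). Acaca, the carboxylase that commits acetyl-CoA to fat (log2 fold change -0.56, SE 0.10, adjusted p = 0.00204), fell but missed the threshold without the length trend (adjusted p = 0.0749), under which 2 members of the list were higher and 3 lower.

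Ribosomal protein genes shifted upward by small amounts. All 76 tested cytosolic ribosomal protein genes had a log2 fold change above 0, 28 were called higher and 0 lower, and the median was 0.21. Their summed level was 60971 to 68630 CPM with AC and 75837 to 76046 CPM with FAC. Abundant genes were called more often, as given above: 41 of 121 genes at 1000 CPM or more were called higher. Rps7, of the small subunit, stood at 1132, 1234 and 1234 CPM in the AC libraries and 1451, 1489 and 1466 CPM in the FAC libraries (log2 fold change 0.29, SE 0.07, adjusted p = 0.0127). These are short genes with a median effective length of 591 bases. With the length trend removed the median was 0.06 and 10 were higher, and on the TPM scale 12 were higher. Without AC library 1 the count was 5, without AC library 3 it was 16, and without any 1 FAC library it was 12 or 13. Nuclear genes of oxidative phosphorylation, which are about as short (median 535 bases), had 7 of 77 higher and a median of 0.12. That count is near the share of all tested genes called higher, 8.7%. With the length trend removed 3 of them were higher and 2 lower, with a median of -0.02. Proteasome genes went from 7 higher to 4 of 38 in that fit, which called 1113 of all 12275 tested genes higher.

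Among called genes of the matrix and cytoskeleton most were lower. Loxl2, which cross-links collagen, stood at 90.2, 95.9 and 96.7 CPM in the AC libraries and 23.7, 26.2 and 24.4 CPM in the FAC libraries (log2 fold change -1.93, SE 0.09, adjusted p = 2.27e-08). Tgm2, a transglutaminase that cross-links proteins, stood at 1689.7, 2027 and 2012 CPM in the AC libraries and 736, 832 and 802 CPM in the FAC libraries (log2 fold change -1.27, SE 0.08, adjusted p = 1.27e-06). Sprr1a, a small proline-rich protein gene, stood at 457, 645 and 517 CPM in the AC libraries and 112, 118 and 109 CPM in the FAC libraries (log2 fold change -2.26, SE 0.11, adjusted p = 6.87e-08). None of these had overlapping groups, and each kept its call without the length trend. In collagens, laminins and integrins 14 of 43 fell and 2 rose, and 10 fell without the length trend. The basement membrane collagen genes Col4a1 (log2 fold change -0.60, SE 0.15, adjusted p = 0.0155) and Col4a2 (log2 fold change -0.68, SE 0.20, adjusted p = 0.0349) fell, the latter call being lost whichever library was left out (highest adjusted p = 0.109). The largest called falls of the list were in Itgam, Itgal, Col3a1 and Itgb3. Of these Itgam, Itgal and Col3a1 were near the detection limit, and Col3a1 also stood in the list of stellate cell markers. Itga1, an integrin that binds collagen, fell (log2 fold change -1.11, SE 0.22, adjusted p = 0.00352). Itgb5, one that binds vitronectin, fell too (log2 fold change -0.47, SE 0.10, adjusted p = 0.00477). Lama3 (log2 fold change 1.08, SE 0.19, adjusted p = 0.00217) and Col26a1 (log2 fold change 1.36, SE 0.25, adjusted p = 0.00265) rose. The count of lower members was 6 without FAC library 4, 7 without AC library 3, 8 without FAC library 6 and 9 without AC library 1 or FAC library 5.

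In the cytoskeleton list 9 of 28 fell and 2 rose, against 8.55% and 8.7% of all genes. The actin cross-linker Flna was lower (log2 fold change -0.69, SE 0.08, adjusted p = 8.87e-05). The tubulins Tubb2a (log2 fold change -0.55, SE 0.09, adjusted p = 0.00123) and Tubb5 (log2 fold change -0.42, SE 0.11, adjusted p = 0.02) were lower. Vim, the intermediate filament of mesenchymal cells, was lower (log2 fold change -0.47, SE 0.09, adjusted p = 0.00338). The galectin genes Lgals1 (log2 fold change 0.47, SE 0.12, adjusted p = 0.021) and Lgals3 (log2 fold change 0.49, SE 0.07, adjusted p = 0.000516) were higher. Without FAC library 6 the lower count was 5.

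Ackr3, an atypical receptor that scavenges the chemokine CXCL12, stood at 8.45, 8.22 and 8.59 CPM in the AC libraries and 0.226, 0.274 and 0.574 CPM in the FAC libraries (log2 fold change -4.54, SE 0.33, adjusted p = 3.4e-06). Slc5a1, the sodium-glucose cotransporter SGLT1, stood at 8.45, 10.3 and 9.25 CPM in the AC libraries and 1.07, 1.31 and 0.746 CPM in the FAC libraries (log2 fold change -3.15, SE 0.52, adjusted p = 0.00218). Rarb, a retinoic acid receptor that is itself a retinoid target, stood at 4.69, 4.33 and 4.32 CPM in the AC libraries and 0.564, 0.0548 and 0.344 CPM in the FAC libraries (log2 fold change -3.77, SE 0.40, adjusted p = 4.49e-05). All 3 were low in every FAC library and did not overlap between groups. Fgfr4, the hepatocyte receptor for the bile acid signal FGF15, stood at 5.94, 9.196 and 7.004 CPM in the AC libraries and 0.903, 0.821 and 1.72 CPM in the FAC libraries (log2 fold change -2.68, SE 0.25, adjusted p = 1.7e-05). Dio3, which inactivates thyroid hormone, fell as well (log2 fold change -2.18, SE 0.25, adjusted p = 7.87e-05). Bicc1, an RNA-binding protein, fell (log2 fold change -2.57, SE 0.25, adjusted p = 2.56e-05). Nrg1, a ligand of ERBB receptors, also fell (log2 fold change -2.14, SE 0.21, adjusted p = 3.14e-05). Among 42 nuclear receptors and coregulators 9 fell and 2 rose, where 8.55% of all tested genes were called lower and 8.7% higher. Without the length trend 5 of them fell, in a fit that called 855 of all 12275 tested genes lower. Thrb (log2 fold change -0.81, SE 0.14, adjusted p = 0.00198) and Nr1h4, which encodes Fxr (log2 fold change -0.95, SE 0.14, adjusted p = 0.00063), were lower.

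Several genes of low level rose. Npy, a neuropeptide gene, stood at 10.03, 12.5 and 8.7 CPM in the AC libraries and 25.9, 29.7 and 30.1 CPM in the FAC libraries (log2 fold change 1.45, SE 0.13, adjusted p = 1.18e-05). Angpt2, a ligand that opposes TIE2 signalling, stood at 7.03, 5.896 and 5.58 CPM in the AC libraries and 19.6, 20.8 and 17.95 CPM in the FAC libraries (log2 fold change 1.65, SE 0.21, adjusted p = 0.000201). Tnfrsf26, a receptor of the tumour necrosis factor family, stood at 7.47, 7.03 and 7.28 CPM in the AC libraries and 20.3, 21.6 and 19.1 CPM in the FAC libraries (log2 fold change 1.49, SE 0.16, adjusted p = 4.49e-05). In these 3 genes every FAC library was above every AC library. Bex2 (log2 fold change 2.72, SE 0.56, adjusted p = 0.00782) and Cck, a peptide hormone gene (log2 fold change 1.73, SE 0.50, adjusted p = 0.0414), rose with a wide spread among the FAC libraries (the call on Cck was lost whichever library was left out, highest adjusted p = 0.141), Bex2 standing at 0.709, 1.03 and 1.81 CPM with AC and 3.84, 6.9 and 12.7 CPM with FAC. Rps6ka2, a kinase downstream of ERK, rose (log2 fold change 1.85, SE 0.19, adjusted p = 3.76e-05). Rab15, a trafficking GTPase, rose (log2 fold change 1.60, SE 0.13, adjusted p = 8.26e-06). Esm1, a secreted proteoglycan, rose (log2 fold change 1.76, SE 0.20, adjusted p = 6.95e-05).

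Markers of other liver cells were low or moved in both directions. Among macrophage markers 8 of 16 were tested. Adgre1 (log2 fold change -1.64, SE 0.29, adjusted p = 0.00171), Marco (log2 fold change -1.70, SE 0.38, adjusted p = 0.00771) and Mpeg1 (log2 fold change -0.83, SE 0.10, adjusted p = 0.000148) fell. Cd68, which is also a lysosomal membrane protein gene, rose (log2 fold change 0.80, SE 0.09, adjusted p = 9.23e-05). The median log2 fold change of the 8 was -0.26. Cd68 stood at 343, 419 and 398 CPM in the AC libraries and 651, 702 and 661 CPM in the FAC libraries, and most of the rise of the summed level, from 726 to 834 CPM with AC to 1075 to 1110 CPM with FAC, was Cd68. Clec4f, Timd4 and Cd5l, which define Kupffer cells, had too few reads to be tested, with 3, 1 and 21 reads in the 3 AC libraries together and 1, 0 and 12 reads in the 3 FAC libraries together. Of 14 tested sinusoidal endothelial markers 4 were higher, 1 was lower and 9 did not pass. Of all tested genes 8.7% were called higher and 8.55% lower. In the endothelial list 12 members had a log2 fold change above 0, and the median was 0.52. Pecam1 (log2 fold change 0.78, SE 0.18, adjusted p = 0.0087), Eng (log2 fold change 0.90, SE 0.22, adjusted p = 0.0125), Cdh5 (log2 fold change 0.56, SE 0.17, adjusted p = 0.0387) and Oit3 (log2 fold change 0.46, SE 0.11, adjusted p = 0.0109) rose, each at low levels. The call on Cdh5 was lost whichever library was left out (highest adjusted p = 0.166), and without AC library 1 the list held 2 higher members. Flt4 fell (log2 fold change -0.62, SE 0.11, adjusted p = 0.00193), at 26.8, 29.9 and 31.95 CPM in the AC libraries and 19.4, 19.3 and 19.1 CPM in the FAC libraries. The summed level of the 14, in which Flt4 had the highest level with AC, was 92.3 to 101 CPM with AC and 93.1 to 98.5 CPM with FAC. Of 9 tested stellate cell markers 1 was higher, 1 was lower and 7 did not pass. In this list 8 members had a log2 fold change below 0, and the median was -0.30. The stellate cell markers summed to 30.8 to 32.8 CPM with AC and 30.8 to 34.4 CPM with FAC, and these ranges overlapped. Of 7 tested cholangiocyte and progenitor markers 1 was higher, 1 was lower and 5 did not pass, with a median of -0.07. Their summed level was larger, at 411.5 to 431.9 CPM with AC and 366.3 to 411.8 CPM with FAC, and the ranges just overlapped. In these bulk samples fewer cells of a type and less RNA per cell cannot be told apart, and the part of other cells in the results above was not tested.

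The response of some genes differed in Fxr-/- cells, by the test of the difference itself, which called 3.15% of tested genes. Levels with AC also differed between the genotypes, in both directions. Mean Cyp2e1 was 117 CPM in wild type and 752 CPM in KO cells, and mean Gclc was 1421 and 702 CPM. Mean Cps1 was 4.99 CPM in wild type and 15.7 CPM in KO cells. Arg1, Gnmt, Hpd, Cyp2f2 and Cyp2c29 were also far lower in wild type with AC, while mean Alb was 20430 and 18193 CPM. Genotype and the state of the cultures cannot be told apart here, and the part of either in these differences was not tested. The 290 genes called at 2-fold or more in wild type were selected on a change that is part of the difference. Their share with a called difference therefore cannot be set against the 3.15%. Of them 244 had a smaller absolute log2 fold change in KO cells, and 45 had a called difference. The heat-shock response was one: Hspa1a stood at 3.901, 3.99 and 2.68 CPM with AC and 5.61, 9.74 and 7.45 CPM with FAC in KO cells (KO minus WT difference -3.51, SE 0.28, adjusted p = 3.04e-05), and Hspa1b stood at 18.2, 13.01 and 14.7 CPM with AC and 15.3, 18.8 and 18.7 CPM with FAC (difference -3.01, SE 0.21, adjusted p = 9.82e-06). Sprr1a stood at 1020.1, 893 and 956 CPM with AC and 853, 1004 and 960.2 CPM with FAC in KO cells (difference 2.23, SE 0.15, adjusted p = 9.82e-06). Its 6 KO libraries overlapped between treatments, unlike those of wild type. The falls of Loxl2 (difference 1.40, SE 0.12, adjusted p = 3.04e-05), Fgfr4 (difference 2.21, SE 0.32, adjusted p = 0.00408), Rarb (difference 3.21, SE 0.54, adjusted p = 0.00944) and Scd1 (difference 0.68, SE 0.11, adjusted p = 0.00944) were smaller in KO cells. Phgdh rose more in KO cells, at 25.5, 25.1 and 28.3 CPM with AC and 72.1, 68.7 and 70.6 CPM with FAC (difference 0.94, SE 0.10, adjusted p = 0.000331), as did Creld2, a chaperone-like gene of the endoplasmic reticulum (difference 1.09, SE 0.11, adjusted p = 0.000331). The V-ATPase genes held 2 such differences among 15, in Atp6v1d (difference -0.38, SE 0.09, adjusted p = 0.0387) and Atp6v1c1 (difference -0.35, SE 0.09, adjusted p = 0.049), and both missed the threshold whichever wild-type library was left out (highest adjusted p = 0.101 and 0.123). For the lists of cytosolic ribosomal proteins (76 tested), carboxylesterases (14) and cholesterol synthesis (25) the count of called differences was 0. Other lists, such as that of the apolipoproteins, also held 0. With 3.15% called over all tested genes, lists this short can hold few or none, so these counts say little of the families.

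**Figure D5:**
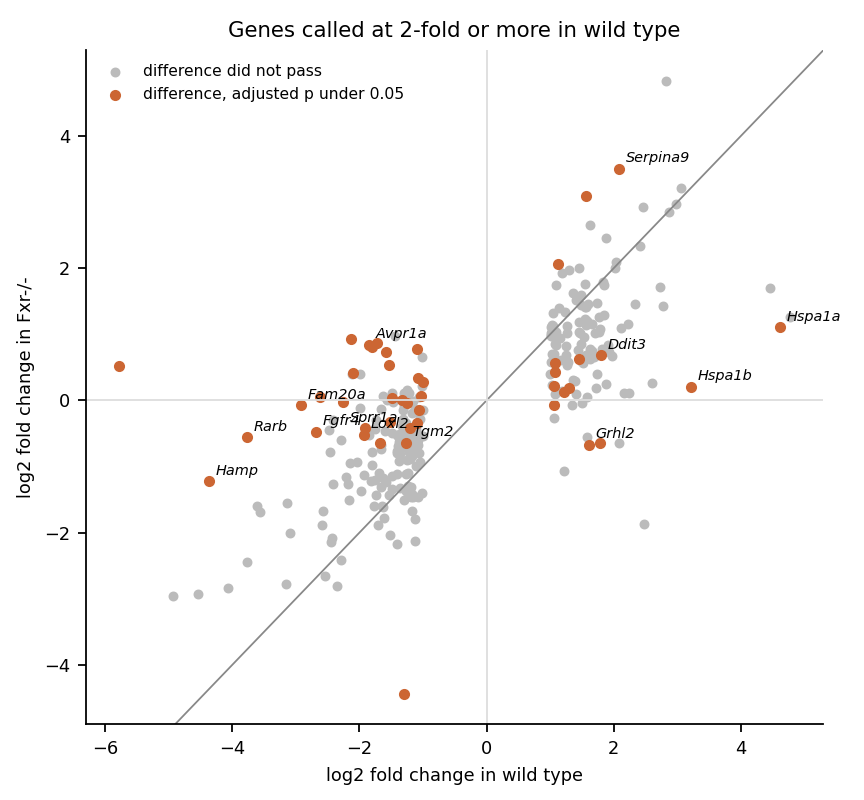
Log2 fold change with FAC in wild type (horizontal) against Fxr-/- cells (vertical) for the 290 genes called at 2-fold or more in wild type; filled colour marks the 45 genes whose difference passed at an adjusted p under 0.05, and the diagonal marks equal change. The genes were selected on the wild-type axis, which also enters the tested difference. Distance from the diagonal and the count of 45 therefore both carry that selection. Hspa1b is at 3.21 in wild type and 0.20 in Fxr-/- cells.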

How the data were processed

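Gene expression was measured by RNA-seq in 12 samples. Per the submitters' processing notes, RSEM and the builds mm10 and GRCm38.p6 were used; not given in the sources used here are the aligner, annotation release and strand setting. The authors deposited 1 table with estimated counts, FPKM and TPM for each sample. Estimated counts were rounded and tested with edgeR 4.0.16 (TMM, filterByExpr with a minimum count of 10, robust quasi-likelihood fit over all 4 groups), which left 12275 genes. Each SE was derived as the absolute log2 fold change over the square root of F. Alternatives were DESeq2 1.42.0, limma 3.58.1 on log2(FPKM + 1), log2(FPKM + 0.1) and log2(TPM + 1), other filters and scalings, the wild-type libraries alone, each library left out, and, chosen after seeing the data, loess removal (span 0.5) of trends on effective length (from deposited counts and FPKM) and transcript GC. The members and the 70 gene lists were chosen with earlier results of these data known. Genes were named by the size of their change overall and within each list, with list members that did not pass as stated. Those named for a large fold change overall had to have wild-type groups that did not overlap, so their separation was fixed by that choice. A further 37 called genes were named outside these rules, after their values were seen. Promoters were matched to RefSeq by gene identifier.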

Additional observations from a re-analysis of the deposited data

Results flagged for a closer look

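The genes below had a response to FAC that differed between Fxr-/- and wild-type cells by edgeR's test of the difference (adjusted p under 0.05), given as the KO minus WT difference in log2 fold change. There were 28 such genes among the 176 with values in the text, and 15 of them passed whichever wild-type library was left out. Many of the 176 were named for their wild-type change, so the count of 28 carries that selection. Of stress genes, Hspa1a differed by -3.51, Hspa1b by -3.01, Ddit3 by -1.13, Stc2 by -1.09, Hyou1 by -0.43, Asns by 0.50, Phgdh by 0.94, Creld2 by 1.09 and Hmox1 by 1.09. Of genes of the surface and cytoskeleton, Sprr1a differed by 2.23, Loxl2 by 1.40, Tgm2 by 0.63, Vim by 0.82 and Lgals3 by 0.50. Of signalling genes, Hamp differed by 3.14, Rarb by 3.21 and Fgfr4 by 2.21. Of lysosomal genes, Atp6v1d differed by -0.38, Atp6v1c1 by -0.35 and Gpnmb by -0.55. Of metabolic and secreted products, Acss2 differed by 0.64, Scd1 by 0.68, Gclc by -0.66, Cyp2a5 by 0.44, Ugt2b36 by 0.83, Ugt3a1 by -0.82, Cps1 by 1.18 and F13b by -0.62. The differences of Asns, Atp6v1c1, Atp6v1d, Hmox1 and Stc2 missed the threshold in all 6 fits without 1 library. Other differences were lost without the libraries named, with the highest adjusted p in brackets: Cyp2a5 without AC 2, AC 3, FAC 4 or FAC 5 (0.11), F13b without AC 1, AC 2, AC 3, FAC 5 or FAC 6 (0.0855), Gclc without AC 2, AC 3, FAC 4, FAC 5 or FAC 6 (0.0874), Hamp without AC 2, AC 3 or FAC 4 (0.0605), Hyou1 without AC 2, AC 3, FAC 4, FAC 5 or FAC 6 (0.108), Lgals3 without AC 2, AC 3, FAC 4 or FAC 5 (0.0773), Tgm2 without AC 3 (0.0551) and Ugt2b36 without AC 2, AC 3, FAC 4 or FAC 5 (0.0992).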

How the results depend on the processing

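Of the 143 called genes with values in the text, 0 changed direction under any alternative, and 105 passed in all 6 fits without 1 wild-type library. Calls on Atf3, Cck, Cdh5, Col4a2, Cps1, Flvcr2, Nfe2l2 and Wipi1 were lost in all 6 such fits (highest adjusted p = 0.134, 0.141, 0.166, 0.109, 0.144, 0.108, 0.127 and 0.139). Other calls were lost only without the libraries named, with the highest adjusted p in brackets. Apob was lost without AC 1, FAC 4 or FAC 5 (0.135), Asns without FAC 4 or FAC 5 (0.0514) and Bmper without AC 1, AC 2, AC 3, FAC 4 or FAC 5 (0.155). Chac2 was lost without AC 3 or FAC 5 (0.0636), Chordc1 without AC 3 (0.0628) and Clu without FAC 5 (0.0503). Col4a1 was lost without AC 3, FAC 4 or FAC 6 (0.0572), Creld2 without AC 1, AC 3, FAC 4 or FAC 5 (0.0974) and Crp without AC 1, AC 2, AC 3, FAC 5 or FAC 6 (0.117). Cth was lost without AC 2, AC 3, FAC 4 or FAC 5 (0.101) and Cyp2e1 without AC 3 or FAC 5 (0.0619). Dhcr7 was lost without AC 1, AC 2 or FAC 5 (0.109), Eng without AC 1 (0.0562) and Fth1 without AC 1, AC 2, FAC 4, FAC 5 or FAC 6 (0.108). Gabarap was lost without AC 1, AC 3, FAC 4, FAC 5 or FAC 6 (0.101), Gss without AC 3, FAC 4 or FAC 6 (0.0759) and Hmox1 without AC 1, AC 2 or FAC 5 (0.0771). Hp was lost without AC 2, AC 3, FAC 4 or FAC 5 (0.0764), Hpx without AC 1, AC 3, FAC 4, FAC 5 or FAC 6 (0.101) and Hsp90ab1 without AC 3, FAC 5 or FAC 6 (0.0921). Lamp2 was lost without AC 3 or FAC 6 (0.0758), Lgals1 without AC 1, AC 3, FAC 4 or FAC 6 (0.0768) and Map1lc3b without AC 1, AC 3, FAC 4, FAC 5 or FAC 6 (0.121). Npc1 was lost without AC 2, FAC 4 or FAC 5 (0.0799), Ppp1r15a without AC 1 or FAC 5 (0.0709) and Rps7 without AC 1 or FAC 5 (0.0525). Serpina3c was lost without AC 2, AC 3, FAC 4 or FAC 6 (0.144), Serpina5 without AC 2, AC 3, FAC 4 or FAC 5 (0.0714), Slc40a1 without AC 1 (0.0528) and Tubb5 without AC 3, FAC 5 or FAC 6 (0.0833). Leaving out 1 library gave 1250 to 1656 called genes in place of 2117, 628 to 803 higher in place of 1068, 622 to 853 lower in place of 1049, and 95 to 376 KO minus WT differences in place of 387. With the wild-type libraries fitted alone 3345 genes were called, 1771 of them lower. On log2(TPM + 1) 576 were higher and 1967 lower. Differences numbered 666 with DESeq2 and 587 with limma on log2(FPKM + 1). The cause of these shifts was not tested, beyond the fewer samples of the fits without a library. With the length trend removed 1968 genes were called, 1577 of them shared with the first fit, and 131 of the 143 kept their call; with the GC trend removed as well 1709 were called and 127 kept it. No paired analysis was possible because the replicate numbers of the groups compared (1 to 3 and 4 to 6) do not overlap.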
